A study of Mus musculus with 4 samples.

Results

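The genes of prostaglandin and leukotriene synthesis and prostaglandin E2 sensing were followed in mouse macrophages stimulated in either of 2 ways. The list held 10 genes, and every probe set whose annotation named only one of them was taken, which gave 13 probe sets for 9 genes of the 18193 genes so named on the array. No probe set of the annotation used here named Ptgs1 alone, so this cyclooxygenase was not analysed here. All 13 probe sets were bright enough to be tested. Macrophages were grown from bone marrow for 7 days in medium with 20% L-cell conditioned medium, kept overnight without it, and then given 100 U/ml of interferon-gamma overnight as priming (16 h is given for the LPS group only). After a wash, the LPS_IC group received lipopolysaccharide (LPS, which engages TLR4) at 10 ng/ml together with immune complexes, which engage Fc gamma receptors, for 2 h. The LPS group received LPS alone at the same dose for 2 h. Each group had 2 arrays, named replicate 1 and replicate 2. The labels give no mouse strain, sex or antigen, and no statement that replicates were separate cultures or animals, so the p-values cover only differences among these arrays, possibly technical ones. Neither group was left without LPS, so what LPS alone did to these genes was not measured.

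Eicosanoids are short-lived lipid signals made from arachidonic acid. Cytosolic phospholipase A2 frees arachidonic acid from membranes, and cyclooxygenases turn it into prostaglandin H2, from which terminal synthases make prostaglandin E2 and the other prostanoids. Alternatively, 5-lipoxygenase with its activating protein makes leukotriene A4, the parent of leukotrienes B4 and C4. Prostaglandin E2 acts on macrophages through EP2 and EP4, receptors that raise cAMP, and is known to restrain some inflammatory cytokines and to favour IL-10.

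The RefSeq promoter windows of Ptgs2 and Ptges are shown because these genes encode consecutive inducible enzymes on the way to prostaglandin E2 and were each measured by more than 1 probe set. Each window runs from 250 bases before to 50 bases after the annotated start in GRCm38.p6, 5′ to 3′ in the direction of the gene. The Ptgs2 window is chr1:150099781-150100080 on the plus strand and the Ptges window chr2:30903248-30903547 on the minus strand. Capitals mark matches to any of 5 motifs searched on both strands.
Ptgs2: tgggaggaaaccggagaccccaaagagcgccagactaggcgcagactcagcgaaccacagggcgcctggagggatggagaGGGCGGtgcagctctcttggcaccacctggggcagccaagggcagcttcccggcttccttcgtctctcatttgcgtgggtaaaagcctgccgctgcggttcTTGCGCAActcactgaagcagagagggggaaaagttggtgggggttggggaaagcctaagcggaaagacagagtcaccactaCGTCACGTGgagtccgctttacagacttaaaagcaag
Ptges: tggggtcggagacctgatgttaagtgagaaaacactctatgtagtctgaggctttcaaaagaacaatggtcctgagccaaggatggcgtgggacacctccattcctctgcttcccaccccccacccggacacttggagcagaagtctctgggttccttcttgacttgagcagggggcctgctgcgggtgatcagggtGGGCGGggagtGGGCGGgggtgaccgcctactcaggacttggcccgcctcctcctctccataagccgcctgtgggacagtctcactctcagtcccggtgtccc

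In the Ptgs2 window the core of a cAMP response element (TGACG, here on the reverse strand at positions 14 to 18 after the start) overlapped an E-box (CACGTG, positions 17 to 22). A C/EBP motif (TTNCGNAA) stood at positions -69 to -62 and a GC box (GGGCGG) at -170 to -165. The Ptges window held 2 GC boxes, at -53 to -48 and -42 to -37, and no match to the other 4 motifs. Of all 32851 RefSeq windows of this length, 20.8% held TGACG, 7.15% CACGTG, 2.47% TTNCGNAA, 35.7% GGGCGG and 13.6% the motif of the TATA box (TATAAA). Windows were found for 9 of the 10 listed genes, without Alox5ap, and in them TGACG and TTNCGNAA matched in that of Ptgs2 alone. Positions count from the annotated start, and where transcription starts in these cells was not measured. A match describes these letters and is no measurement of binding.

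The cells carried the transcripts that define macrophages: all 8 markers fixed for them, among them Adgre1, Csf1r, Cd68 and Cd14, read between 729.7 and 46505.3 on the 4 arrays. Of the markers of mast cells and basophils, T cells, B cells and fibroblasts, 18 on the array, each by its brightest probe set, none read above 284.6, and none was at 0. All readings of Alox5, of Ltc4s and of the dimmest Ptges probe set lay within that range. So did LPS_IC replicate 1 of the other Ptges probe sets, at 263.1 for the brightest (1449450_at) and 173.9 for 1439747_at. Ptges2 was within it on LPS_IC replicate 2, at 247.2. Levels of different probe sets are not on one scale, however. The neutrophil list had one bright member, S100a8, and its others on the array read at most 127.7. Signals were MAS 5.0 intensities, scaled by the authors to one trimmed mean on each array. The first LPS_IC array had raised low signals, with a 5th percentile of 28.1 against 3.3 on the second LPS_IC array and 7.9 and 4.2 on the LPS arrays. The deposited table used here holds no detection calls, so dim readings were not judged against background probes.

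Of these genes, Ptges, the inducible synthase that makes prostaglandin E2, differed the most between the stimulations: its signal was lower with immune complexes on all 3 of its probe sets. The inducible cyclooxygenase Ptgs2 was bright on every array by its brighter probe set, and the receptor gene Ptger4 had higher mean signals with immune complexes on both of its probe sets. None of the 13 probe sets passed the test, limma on log2(signal + 32) with Benjamini-Hochberg adjustment over all 27022 tested probe sets at a threshold of 0.05, and each had an adjusted p of 1. Over the array that test called 0.0518% of probe sets (0.0444% higher and 0.0074% lower), and 0.0621% of genes by their brightest probe set. At an unadjusted limma p under 0.05 one member probe set, of Ptges, was lower and none higher, against 0.947% and 1.86% of all tested probe sets. Over the 9 genes, each by its brightest probe set, the median log2 fold change (LPS_IC minus LPS) was -0.07, with 3 genes above 0 and 6 below, against a median of 0.05 over the 12891 tested genes.

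**Figure D1:**
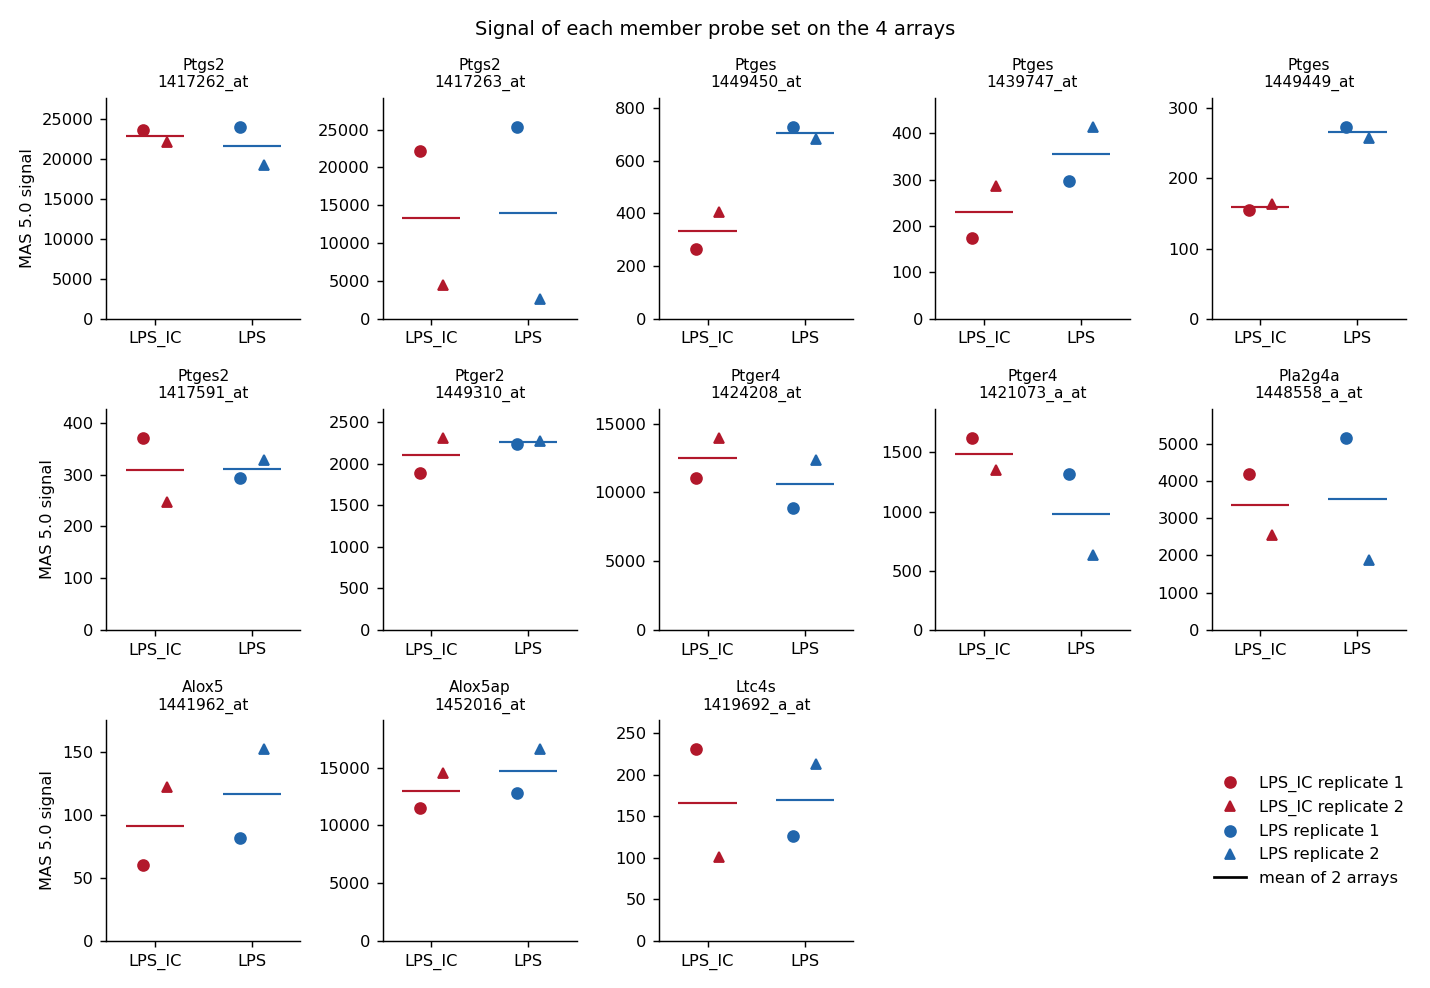
MAS 5.0 signal (linear axis from 0, a scale of its own in each panel) of the 13 probe sets on the LPS_IC arrays (red, left) and the LPS arrays (blue, right); circles are replicate 1, triangles replicate 2 and lines the mean of 2 arrays. The 3 Ptges panels have both LPS_IC arrays below both LPS arrays, while the second Ptgs2 panel separates replicate 1 from replicate 2 in both groups.

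Pla2g4a encodes cytosolic phospholipase A2, which frees arachidonic acid. It read 4181.9 and 2545.2 on LPS_IC replicates 1 and 2, against 5164.5 and 1883.1 on LPS replicates 1 and 2. The groups overlapped, and the replicate 1 array was the higher one in each group. Over both replicates this gave a log2 fold change of 0.06 ± 0.46 (SE), with a 95% interval from -0.93 to 1.06, and the difference was -0.30 between the replicate 1 arrays and 0.43 between the replicate 2 arrays.

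Ptgs2, the cyclooxygenase induced by inflammatory stimuli, had 2 probe sets that behaved differently. The brighter one (1417262_at) read 23733.1 and 22184.3 on the LPS_IC arrays, against 24086 and 19220.3 on the LPS arrays. All 4 readings lay close together and the groups overlapped. Its mean was 22958.7 ± 1095.2 with immune complexes and 21653.2 ± 3440.6 with LPS alone (SD, n = 2 arrays each), a log2 fold change of 0.09 ± 0.23 (SE). The 95% interval ran from -0.42 to 0.60, or from 0.748-fold to 1.52-fold, the narrowest of the 13 probe sets.

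The second Ptgs2 probe set (1417263_at) read 22141.4 and 4448.3 on LPS_IC replicates 1 and 2, against 25391.3 and 2559.2 on LPS replicates 1 and 2. Its readings thus followed the replicate number and not the stimulation: replicate 1 was 4.98-fold above replicate 2 with immune complexes and 9.92-fold with LPS alone. The first probe set of the same gene gave 1.07-fold and 1.25-fold for the same pairs of arrays. Of all tested probe sets, 0.237% (64) had replicate 1 above replicate 2 by at least 2 on the log2 scale in both groups, a count made after this reading had been seen. The log2 fold change between the stimulations was 0.30 ± 0.87 (SE), with an interval from -1.59 to 2.19. Its value rested on single arrays: without LPS replicate 1 it was 1.94, and without LPS replicate 2 it was -1.35.

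**Figure D2:**
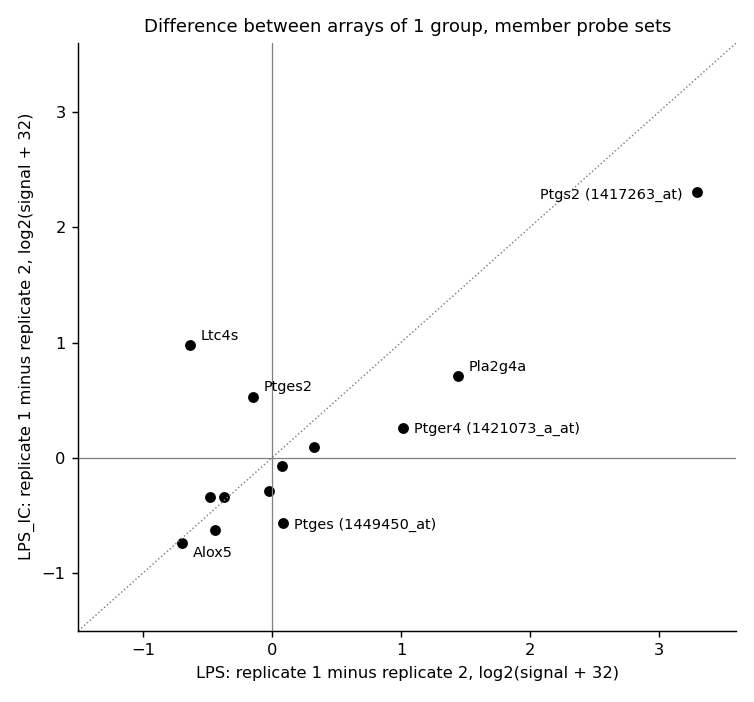
Difference between replicate 1 and replicate 2 on the log2(signal + 32) scale, within LPS_IC (vertical axis) and within LPS (horizontal axis), with 1 point per probe set and equality as the dotted line. The Ptgs2 probe set 1417263_at lies apart at 2.31 in LPS_IC and 3.29 in LPS, and Pla2g4a is next at 0.71 and 1.44. Ltc4s and Ptges2 differ in opposite directions in the 2 groups. So do the Ptges probe sets 1449450_at (-0.57 in LPS_IC, 0.09 in LPS) and 1449449_at (-0.07 and 0.07).

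Ptges encodes microsomal prostaglandin E synthase-1, which is induced together with Ptgs2 in activated macrophages and converts prostaglandin H2 to prostaglandin E2. Its brightest probe set (1449450_at) read 263.1 and 405 on the LPS_IC arrays, against 730 and 684.5 on the LPS arrays. Both LPS_IC readings lay well below both LPS readings. The mean was 334.1 ± 100.3 with immune complexes and 707.3 ± 32.2 with LPS alone (SD, n = 2 arrays each), 2.06-fold lower on the log2(signal + 32) scale.

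The log2 fold change of this probe set was -1.04 ± 0.42 (SE), with a 95% interval from -1.95 to -0.13 and an unadjusted limma p of 0.0281, which did not pass once adjusted over the array (adjusted p = 1). The other probe sets of Ptges lay on the same side. Probe set 1449449_at read 154.8 and 164.1 on the LPS_IC arrays against 273.7 and 258.3 on the LPS arrays, a log2 fold change of -0.64 ± 0.47 (SE). Probe set 1439747_at read 173.9 and 286.2 against 297.1 and 414.3, a log2 fold change of -0.58 ± 0.46 (SE), and here the upper LPS_IC reading came close to the lower LPS reading.

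The difference in Ptges had the same sign between the replicate 1 arrays and between the replicate 2 arrays, at -1.37 and -0.71 for the brightest probe set, -0.71 and -0.57 for 1449449_at and -0.68 and -0.49 for 1439747_at. Groups that do not overlap in this way are frequent on these arrays: 12% of all tested probe sets had both LPS_IC arrays below both LPS arrays and 13.6% had them above, against 3 and 1 of the 13 member probe sets. The 3 lower ones belong to a single gene and are not independent of each other. In RNA from whole cultures, fewer cells with a transcript and less of it per cell cannot be told apart. The neutrophil marker list, on the strength of S100a8, summed to 1223.4 and 1434.9 on the LPS_IC arrays against 794.9 and 785.2 on the LPS arrays. S100a8 itself had a log2 fold change of 0.89 ± 0.39 (SE), with an unadjusted limma p of 0.0424 that did not pass once adjusted. The other neutrophil markers were dim and went both ways. Mpo (-0.35) was lower without overlap and Camp (-0.37) lower with overlap. Elane and S100a9 were too dim to be tested, Elane higher without overlap and S100a9 overlapping. The macrophage marker list summed to 133083.4 and 150409.9 on the LPS_IC arrays against 152218.8 and 186681 on the LPS arrays. One of its members, Mertk, read 3476.3 and 1857.9 against 8525.9 and 3206, a log2 fold change of -1.03 ± 0.46 (SE) with an unadjusted limma p of 0.0446 (adjusted p = 1) and overlapping groups. In the macrophage list the brightest members, Cd14 (log2 fold change -0.40) and Lyz2 (-0.28), were also lower, without overlap. By brightest probe set the other members had overlapping groups and went both ways. They lay at 0.16 for Cd68, 0.07 for Itgam, -0.14 for Adgre1, -0.19 for Csf1r and -0.31 for Fcgr1. The part of these lists in the result was not tested.

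Ptges2 encodes a second prostaglandin E synthase, made constitutively in many tissues. It read 371.2 and 247.2 on the LPS_IC arrays, against 294 and 329 on the LPS arrays. Both LPS readings lay between the LPS_IC readings, and the log2 fold change was -0.03 ± 0.44 (SE), with an interval from -0.99 to 0.92. The sign was opposite in the replicates, 0.31 between the replicate 1 arrays and -0.37 between the replicate 2 arrays. Whether Ptges and Ptges2 differed from each other in their response was not tested.

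**Figure D3:**
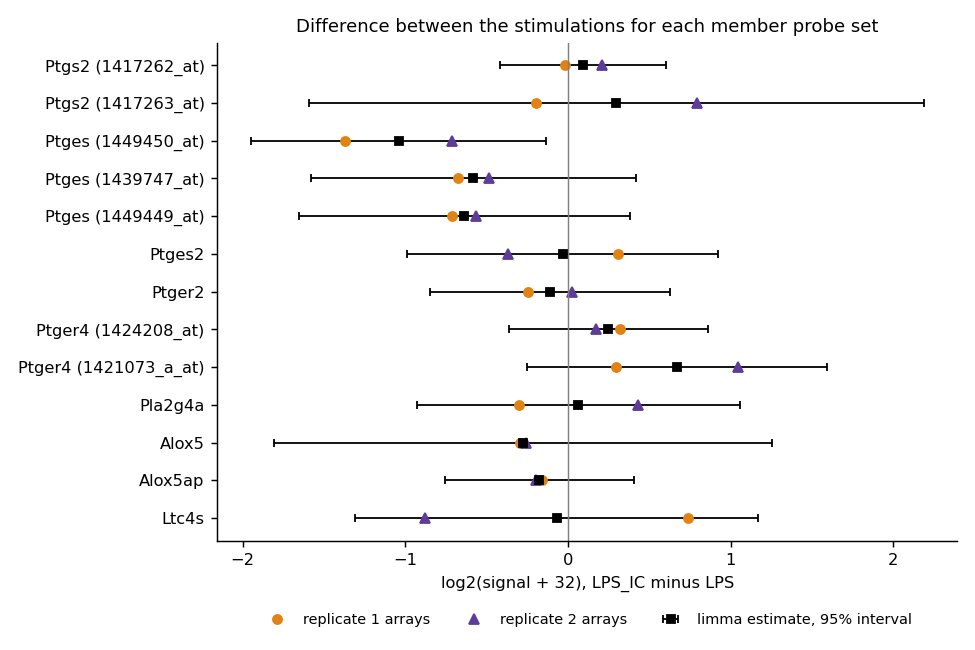
Difference between LPS_IC and LPS on the log2(signal + 32) scale for each probe set: squares with bars are the limma estimate and its 95% interval, circles the replicate 1 arrays and triangles the replicate 2 arrays. Only the brightest Ptges probe set has an interval, before adjustment over the array, that does not reach 0 (-1.95 to -0.13). In 7 of 13 probe sets both replicate numbers have the same sign. These include all probe sets of Ptges and of Ptger4, which are not independent within a gene. The share over all tested probe sets was not counted, so the 7 are no measure of agreement.

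The receptors EP2 and EP4 couple prostaglandin E2 to cAMP. Ptger4, which encodes EP4, read 11042.9 and 13959.6 on the LPS_IC arrays with its brighter probe set (1424208_at), against 8858.5 and 12361.5 on the LPS arrays. Each LPS_IC array was above the LPS array of the same number, but the groups overlapped. The log2 fold change was 0.25 ± 0.28 (SE), with an interval from -0.37 to 0.86, and without LPS replicate 1 it was 0.0063.

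The dimmer Ptger4 probe set (1421073_a_at) read 1622.9 and 1349.4 with immune complexes, against 1318.2 and 636.3 with LPS alone. It was the only member probe set with both LPS_IC arrays above both LPS arrays, where the lowest LPS_IC and highest LPS readings were close together. Its log2 fold change was 0.67 ± 0.42 (SE), with an interval from -0.25 to 1.59 and an unadjusted limma p of 0.138. The replicate 2 arrays differed by 1.05 and the replicate 1 arrays by 0.29. The value was 0.16 without LPS replicate 2 and 1.18 without LPS replicate 1.

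Ptger2, which encodes EP2, read 1891.6 and 2314.1 on the LPS_IC arrays, against 2244.9 and 2275.5 on the LPS arrays. The second LPS_IC array was level with the LPS arrays and the first lay below them. Its log2 fold change was -0.11 ± 0.34 (SE), with an interval from -0.85 to 0.63.

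The leukotriene branch is opened by 5-lipoxygenase, the product of Alox5. Its probe set read 60.3 and 122 on the LPS_IC arrays, against 81.4 and 152 on the LPS arrays. In each group the replicate 2 array was the higher one, and the groups overlapped. On average this was a log2 fold change of -0.28 ± 0.70 (SE), with an interval from -1.81 to 1.26, so this probe set bounds the difference only loosely.

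Alox5ap encodes the 5-lipoxygenase activating protein (FLAP), which presents arachidonic acid to the enzyme. It was bright throughout, at 11495.5 and 14527.6 on the LPS_IC arrays and 12834.4 and 16619.9 on the LPS arrays. Each LPS_IC array was slightly below the LPS array of the same number, by 0.16 and 0.19 on the log2 scale in replicates 1 and 2. Alox5ap thus had a log2 fold change of -0.18 ± 0.27 (SE), with an interval from 0.592-fold to 1.32-fold.

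Ltc4s encodes leukotriene C4 synthase, which joins leukotriene A4 to glutathione. It read 230.9 and 101.4 on the LPS_IC arrays, against 125.8 and 213 on the LPS arrays. Both LPS readings lay between the LPS_IC readings, and the difference was 0.74 between the replicate 1 arrays and -0.88 between the replicate 2 arrays. Averaged, they gave a log2 fold change of -0.07 ± 0.57 (SE), with an interval from -1.31 to 1.17.

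A wider list of 55 other genes of eicosanoid metabolism was examined in the same fit. Probe sets naming them alone were found for 50, of which 39 were bright enough to test. None passed (0 higher and 0 lower, each with a limma adjusted p of 1). At an unadjusted limma p under 0.05, 1 of the 39 was higher (Hpgds) and 1 lower (Abcc1). Of all 12891 tested genes, 256 were higher and 147 lower at that threshold. The median log2 fold change was -0.01, with 18 genes above 0 and 21 below. By brightest probe set, 2 genes had both LPS_IC arrays above both LPS arrays and 4 had them below, against 13.2% and 13.1% of all tested genes.

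Among 6 tested prostanoid synthases, Hpgds, the hematopoietic prostaglandin D synthase, read 1055.9 and 975.5 on the LPS_IC arrays against 646.9 and 388.9 on the LPS arrays. Both LPS_IC readings were above both LPS readings, and the log2 fold change was 0.97 ± 0.41 (SE) with an unadjusted limma p of 0.0359. Tbxas1, which makes thromboxane A2 from the same precursor, read 5783.1 and 7171.1 against 7497.4 and 9578, a log2 fold change of -0.39 ± 0.29 (SE). Its highest LPS_IC reading and lowest LPS reading were close together. Ptgds, the lipocalin-type prostaglandin D synthase, by its brighter probe set and Ptgis, the prostacyclin synthase, were dim and uneven. Their log2 fold changes were -0.84 ± 0.78 and 0.69 ± 0.93 (SE). The dimmer Ptgds probe set was more even and had both LPS_IC arrays below both LPS arrays, at -0.26 ± 0.69 (SE).

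In the leukotriene branch, Abcc1, the transporter that exports leukotriene C4, read 2927.2 and 2488.4 on the LPS_IC arrays against 4340.9 and 4436.4 on the LPS arrays by its brighter probe set. The log2 fold change was -0.69 ± 0.31 (SE) with an unadjusted limma p of 0.0475, while its other probe set gave -0.07 with overlapping groups. The microsomal glutathione transferases Mgst2 and Mgst3 also had both LPS_IC arrays below both LPS arrays, at -0.56 ± 0.55 and -0.20 ± 0.36 (SE). Dpep1, a dipeptidase that acts on leukotriene D4, had them above, at 1.02 ± 0.83 (SE), with 198.3 on the first LPS_IC array, 71.7 on the second and 38.8 and 50.5 on the LPS arrays. Alox12 and Cotl1, an actin-binding partner of 5-lipoxygenase, had overlapping groups by their brightest probe sets and values of 0.36 ± 0.85 and 0.19 ± 0.31 (SE), as had Ggt5 and the receptor gene Cysltr2 at 0.31 ± 0.45 and -0.08 ± 0.58 (SE). A dimmer Cotl1 probe set had both LPS_IC arrays below both LPS arrays, at -0.12 ± 0.32 (SE). The remaining Cotl1 probe sets overlapped and went both ways.

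By brightest probe set, no tested gene of the remaining groups had arrays that did not overlap between the stimulations. Dimmer tested probe sets of Pla2g15 and Ptgfr had both LPS_IC arrays above both LPS arrays, and a dimmer one of Acsl4, which activates arachidonic acid, had them below. The phospholipase group (11 tested) spanned log2 fold changes from -0.36 to 0.74, with Mgll, which hydrolyses monoacylglycerols, at the upper end, Pla2g2d at 0.61, Pla2g6 at 0.51 and the lysosomal Pla2g15 at 0.37. For Mgll the difference was 1.57 between the replicate 1 arrays and -0.09 between the replicate 2 arrays. The other tested probe sets of Mgll gave -0.32 and 0.29. Pla2g2d read 223.7 on the first LPS_IC array and 40.8 on the second, against 63.7 and 51.5 on the LPS arrays. Pla2g6 read 931.2 on the first LPS_IC array and 55.8 on the second, so the values of Pla2g2d and Pla2g6 each rested on 1 array. The prostanoid receptors (4 tested) ranged from 0.00 for Ptgir, the prostacyclin receptor gene, through 0.02 for Tbxa2r and 0.16 for Ptgdr to 1.05 for Ptgfr, which likewise read 276.5 on the first LPS_IC array and 10.1 on the second. Genes of prostanoid transport and breakdown (4 tested) lay at -0.63 for the transporter Slco2a1, -0.22 for Abcc4, -0.14 for Ptgr2 and 0.09 for Ptgr1. The Slco2a1 probe set read 61.4 and 86.4 on the LPS_IC arrays against 200 and 81.9 on the LPS arrays, so its value rested on LPS replicate 1, and the other tested probe sets of this gene gave 0.35 and 0.11.

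**Figure D4:**
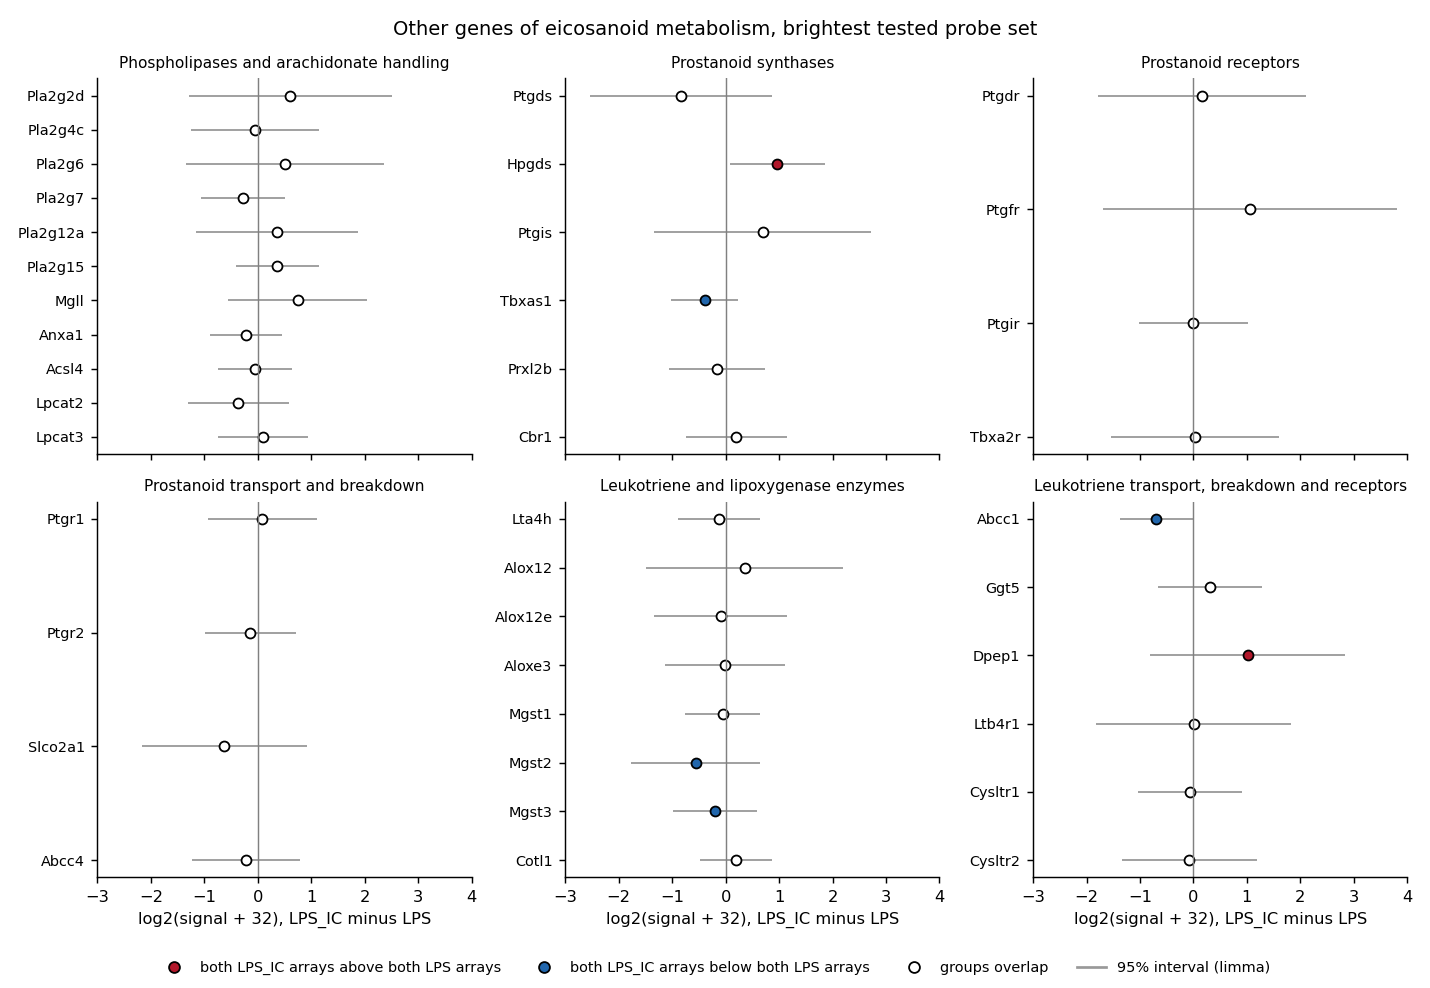
Difference between LPS_IC and LPS on the log2(signal + 32) scale, with the 95% limma interval, for the 39 other tested genes of eicosanoid metabolism in 6 groups, each by its brightest tested probe set. Filled points are genes whose groups do not overlap, red for LPS_IC above (Hpgds, Dpep1) and blue for LPS_IC below (Tbxas1, Mgst2, Mgst3, Abcc1), and open points are genes whose groups overlap.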

How the data were processed

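Total RNA from 4 macrophage samples was hybridised to a mouse Affymetrix array, and the deposited values are intensities that the authors made with MAS5 version 5.0, per the submitters' processing notes. Each array was scaled as a whole, to a mean of 500 without the lowest and highest 2% in the deposited table, which leaves differences between arrays at low signals. Genome build and detection calls were not given in the sources used here. Gene names came from GEO's platform annotation.

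Values were used as log2(signal + 32), so changes of dim probe sets are understated. Leaving out 64 controls and probe sets with a mean signal under the 40th percentile (69.7) left 27022. The stimulations were compared with limma 3.58.1 under R 4.3.3 (lmFit, then eBayes with a variance trend; no block; two-sided), with calls at Benjamini-Hochberg adjusted p under 0.05. The method was run on simulated arrays with independent noise drawn from the fit's own spread. These lacked the raised low signals of the first LPS_IC array, so the run cannot show that the method suits the real arrays. Each gene took its brightest tested probe set. All members were described with every probe set, and of the wider list up to 4 genes per group by size of change. Members, lists and tests were chosen with earlier results of these data known. Alternatives changed the normalization, pseudocount, filter, variance trend, threshold, replicate block, arrays used and probe set rule. Only 4 arrays limit the precision. Promoter windows are RefSeq's.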

Additional observations from a re-analysis of the deposited data

How the results depend on the processing

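The sign of Ptges was the same in all 14 alternatives, from -1.32 to -0.75. The same was true of Ptger4, from 0.0063 to 0.49, by its brighter probe set or by the mean of both where the probe set rule was changed. Most of these could not turn the sign of Ptges. A change of filter or variance trend, or the block alone, leaves the log2 fold change as it is. With both LPS_IC arrays below both LPS arrays, other pseudocounts and leaving out 1 array cannot turn it either. The count of alternatives is therefore no support for the sign of Ptges. For Ptger4 too it includes the alternatives that leave the log2 fold change as it is, so it is no support there either. The labels do not say that a replicate number marks a shared culture or day. With the replicate block no member probe set passed (Ptges adjusted p = 0.0783), 1 gene of the wider list, Abcc1, did (adjusted p = 0.0454), and 671 probe sets were called over the array. With the block on quantile-normalized values 903 were called, with 2 of the members, Ptges (-1.27, adjusted p = 0.017) and Ptger4 (0.40, adjusted p = 0.024), and 1 of the wider list, again Abcc1 (adjusted p = 0.021). Both blocked fits, that with median centring and those without an LPS array took the spread from the trend alone (infinite prior degrees of freedom), whatever the probe set's own replicates did. Deviations of same-numbered arrays from their group means correlated at 0.38 across probe sets, which are not independent replicates. Over the array, calls numbered 14 in the fit reported, 0 with quantile normalization, 47 with median centring, 23 and 6 with pseudocounts of 1 and 100, 89 without a filter, 4 with a filter at the 60th percentile, 0 with no trend of the variance, 37 at adjusted p under 0.1, and 0 to 109 without 1 array. Without 1 array, 0 to 1 member probe sets and 0 genes of the wider list were called, the one being the dimmer Ptgs2 probe set without LPS replicate 1, with an SE of 0.41 although its LPS_IC arrays differed by 2.31, so this call does not reflect its replicates. The median of the 9 genes was -0.037 with quantile normalization (also with the block), -0.27 with median centring, where the median of all genes was -0.15, and -0.12 to 0.077 without 1 array. Signs near 0 turned: with median centring Ptgs2 was -0.10 and Pla2g4a -0.13, and without 1 array Ptgs2 spanned -0.070 to 0.26, Pla2g4a -0.66 to 0.78, Ptger2 -0.25 to 0.034, Ptges2 -0.30 to 0.23, Alox5 -0.65 to 0.092, Alox5ap -0.36 to 0.0099 and Ltc4s -0.56 to 0.42. The cause was not tested. Alox5 lay below the 60th percentile filter and had no value there.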
